A study of Xenopus tropicalis with 24 samples.

Results

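Histone marks and transcripts were compared within whole wild-type, untreated Xenopus tropicalis embryos at Nieuwkoop and Faber stage 10.5, the early gastrula of this frog. The comparison used 5 of the 24 samples of the series: the peak lists of H3K4me3, H3K4me1, H3K27ac and H3K27me3, each from chromatin of a pool of 250 embryos, and a 3′ RNA-seq library made from 400 ng of polyadenylated RNA. The peak lists were set against each other, with overlap meaning at least 1 bp. They were also joined to the RNA table through 6199 gene labels. These labels were the ones that a peak of any of the 17 lists of the series named within 1 kb of an annotated transcription start site, out of 8164 labels named in the lists at any distance.

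H3K4me3, trimethylated lysine 4 of histone H3, marks the start sites of genes. H3K4me1, its monomethylated form, is spread over enhancers and the flanks of promoters. H3K27ac, acetylated lysine 27, is laid down by the acetyltransferases p300 and CBP at active promoters and enhancers, and the same residue is trimethylated by the Polycomb repressive complex. In the frog embryo the maternal transcripts of the egg are joined by zygotic transcripts at the mid-blastula transition, and at early gastrulation the germ layers and the organizer express their own regulators.

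Each mark and the RNA were measured in 1 library, so the differences below have no check by replicates, no test was made, and all intervals are exact 95% binomial intervals that cover counting error only. The called regions of the RNA library held 11395054 tags, of which 8030203 lay in regions with a gene label. Levels are given as CPM, the count of a label per 1e6 labelled tags. A tag comes from the 3′ end of a transcript, so levels were not divided by gene length. In whole embryos, fewer cells of a type and less RNA per cell cannot be told apart, and a mark and a transcript of the same gene need not come from the same cells. Of the 6199 labels, 4538 had an RNA region of their own. The other 1661 labels enter the shares over all labels as below the level asked for. They cannot be read as silent, since 351 of them occurred in RNA labels that name several genes and others lay upstream of regions with no label. The labelled stage could not be checked from transcripts of later cell types. Of the 9 labels found for 32 such markers, neurod1, elavl4, snap25, mapt, actc1, nkx2-5, pax8 and pax6 had no RNA region of their own, and tubb2b, a neural tubulin, had 10.1 CPM.

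H3K4me3 lay mostly inside the other 2 active marks at this stage, which covered far more ground than it did. H3K4me1 formed the longest list with 35700 peaks, followed by H3K27ac with 23275, H3K4me3 with 14549 and H3K27me3 with 179. Of the H3K4me3 peaks, 90.3% overlapped an H3K4me1 peak and 67.2% an H3K27ac peak. Read from the other side, 36.1% of H3K4me1 peaks and 40.8% of H3K27ac peaks overlapped H3K4me3. H3K4me1 was the partner of 79.9% of H3K27ac peaks, and 58.8% of H3K4me1 peaks carried H3K27ac. By length, H3K4me1 and H3K27ac shared 58.3 Mb, which was 63.0% of the H3K4me1 ground. H3K4me3 covered 27.9% of the H3K4me1 length and 19.4% of the H3K27ac length.

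The combinations differed between peaks centred at promoters and all other peaks. Of the 4779 H3K4me3 peaks centred within 1 kb of a start site, 75.5% (74.3 to 76.7%) overlapped both H3K4me1 and H3K27ac, 21.4% overlapped H3K4me1 without H3K27ac and 1.49% overlapped neither. The 31295 H3K4me1 peaks not centred within 1 kb of a start are called distal. They include 2653 on scaffolds with no annotated start, and wide peaks that reach a start. Of these 31295, 36.9% carried H3K27ac without H3K4me3 and 19.7% carried both other marks. H3K4me3 alone was carried by 8.47%, and 35.0% (34.4 to 35.5%) carried neither. The distal H3K4me1 peaks with neither mark were the narrowest, with a median width of 988 bp, against 1994 bp with H3K27ac alone and 3290 bp with both. Median GC content was 45.4% in distal H3K4me1 peaks with H3K4me3 and without H3K27ac, and 40.0% in those with H3K27ac alone. Of the 19812 distal H3K27ac peaks, 21.5% overlapped neither methylation.

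H3K27ac formed the widest single peaks, so 1 acetylated domain could take in several H3K4me1 peaks. The list's median width was 2375 bp and its widest peak reached 129635 bp. In the widest 25% of H3K27ac peaks, from 4680 bp upward, 32.7% overlapped at least 2 H3K4me1 peaks and the highest count was 11. In the narrowest 25%, up to 1262 bp, none overlapped more than 1 and 33.5% overlapped no H3K4me1 peak. Because of such peaks, a share of peaks depends on which list is cut into more pieces, and shares are given here as a share of each list.

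**Figure D1:**
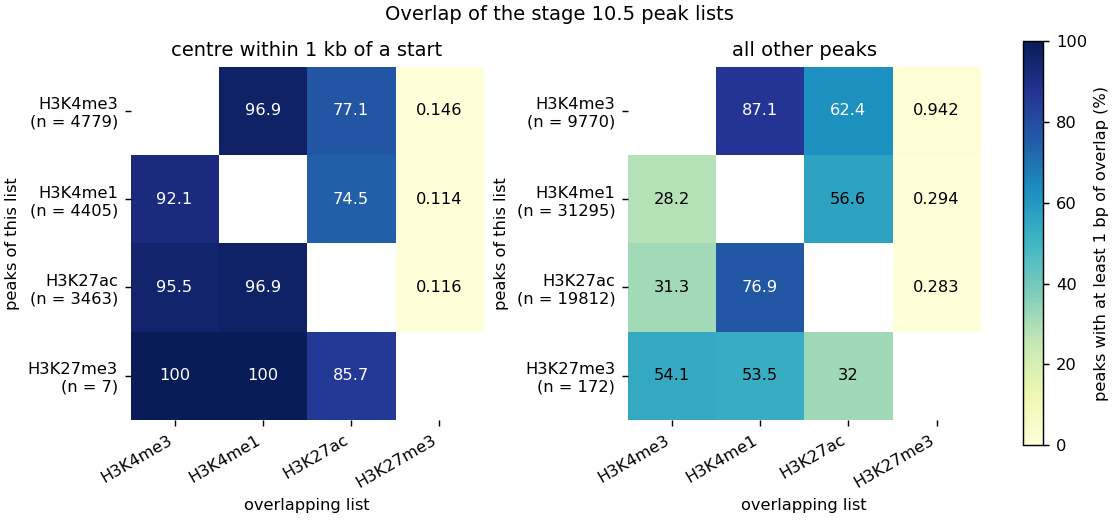
Each cell gives the percent of the peaks of the row's list that overlap the column's list by at least 1 bp, at left for peaks centred within 1 kb of a start site and at right for all other peaks. H3K4me3 overlapped 92.1% of H3K4me1 peaks centred within 1 kb and 28.2% of the others, while H3K27ac overlapped 74.5% and 56.6% of them.

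At the promoters, 5669 of the 6199 labels carried H3K4me3 within 1 kb of the start (91.5%), 5924 carried H3K4me1 (95.6%) and 4763 carried H3K27ac (76.8%), while 8 carried H3K27me3 (0.129%). These shares describe labels that were chosen by having a peak near the start, so they cannot be read as shares of all genes. All 3 active marks lay at 4457 promoters (71.9%). The next combination, H3K4me3 with H3K4me1 and no H3K27ac, was found at 1065 labels. H3K4me1 alone was found at 210, H3K4me1 with H3K27ac at 192, none of the 3 at 96, H3K4me3 with H3K27ac at 82, H3K4me3 alone at 65 and H3K27ac alone at 32. Of the acetylated promoters 95.3% had H3K4me3, near its 91.5% over all labels. In the other direction 80.1% (79.0 to 81.1%) of the H3K4me3 promoters were acetylated, against 76.8% of all labels.

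H3K4me3 was centred on the start, H3K4me1 was broader, and both leaned downstream. Over 6068 labels whose start and strand could be placed, an H3K4me3 peak covered 89.6% of the starts, 48.7% of the positions 1 kb downstream and 28.5% of those 1 kb upstream. H3K4me1 covered 88.7% of starts, 60.4% at 1 kb downstream and 54.5% at 1 kb upstream. H3K27ac covered 71.5%, 39.5% and 37.4% at the same positions. Among the 1520 labels at 100 CPM or more, H3K4me3 still covered 36.2% of the positions 2 kb downstream, against 23.0% over all labels. In this group H3K4me1 was highest not at the start, where it covered 84.3%, but 400 bp upstream, at 87.4%. Over all labels the highest H3K4me1 value lay 200 bp downstream, at 89.2%.

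**Figure D2:**
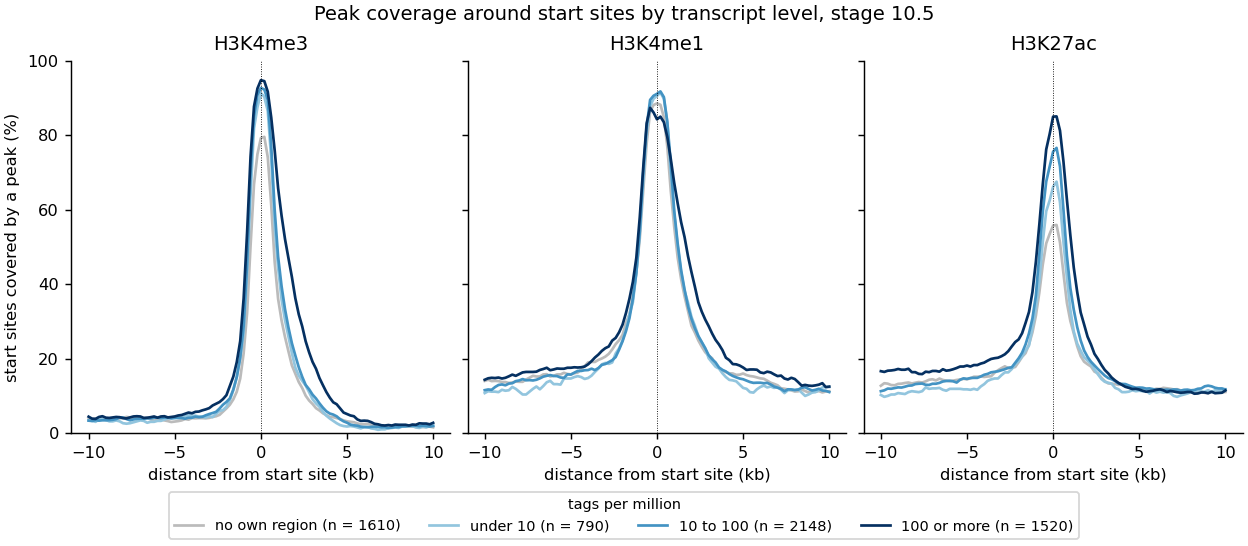
The lines give the percent of start sites at which a peak covers a given distance from the start, in kb with downstream to the right, for labels grouped by CPM at stage 10.5. H3K27ac at the start was covered in 85.1% of labels at 100 or more CPM, and the dark lines of that group lie above the others downstream of the start for H3K4me3.

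Transcripts were found more often at promoters with H3K27ac. Over all labels, 3736 of 6199 reached 10 CPM, which is 80.3 tags (60.3%). Of the 4539 promoters with H3K4me3 and H3K27ac, 67.9% (66.5 to 69.3%) reached this level, and of the 1130 with H3K4me3 and no H3K27ac, 41.9% (39.0 to 44.9%) did. The median over labels with a region of their own was 58.3 CPM with H3K27ac and 26.3 CPM without it, a ratio of 2.22. The middle 50% of these labels ran from 18.7 to 165 CPM with the acetylation and from 7.91 to 75.2 CPM without it, so the levels overlapped broadly. Labels without H3K4me3 reached 10 CPM in 33.8% (29.8 to 38.0%) of 530 cases. Part of these shares is set by whether a label had a region at all: 80.2% of labels with both marks had one, against 59.1% with H3K4me3 and no H3K27ac and 43.4% without H3K4me3. Over labels with a region, the shares at 10 CPM were 84.7%, 71.0% and 77.8%.

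Counting tags by position, with no use of the RNA labels, gave the same order as the shares over all labels. All tags on the gene's strand from the start to the next start were counted, up to 50 kb, and scaled to all tags in called regions. Regions that name another gene were included, so a neighbour's tags can enter where its start is not among those placed. By this measure 62.4% of the 6068 placed labels reached 10 CPM. The shares were 70.7% with H3K4me3 and H3K27ac, 40.4% with H3K4me3 and no H3K27ac, and 34.5% without H3K4me3. Labels that occur only in RNA labels of several genes were at 10 CPM in 76.1% of cases, close to the 74.3% of labels with a region of their own. Labels in no RNA label reached it in 17% of cases.

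H3K4me1 separated the labels less than H3K27ac. With H3K27ac 66.5% of labels and without it 39.7% (37.2 to 42.3%) reached 10 CPM. Of the 5924 labels with H3K4me1, 60.7% reached 10 CPM, against 50.9% (44.8 to 57.0%) of the 275 without it. The median over labels with a region was 50.9 CPM with and 54.5 CPM without H3K4me1. The 82 promoters with H3K4me3 and H3K27ac and no H3K4me1 had the highest median of any combination, 102 CPM, and 73.2% (62.2 to 82.4%) of them reached 10 CPM. Their H3K4me3 peaks were narrow, with a median of 1185 bp, and their median GC content was 52.4%, against 2226 bp and 44.2% at promoters with all 3 marks. hsp90ab1, a cytosolic chaperone at 4239 CPM, had this combination of marks, but its H3K4me3 peak was wider, at 3872 bp.

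**Figure D3:**
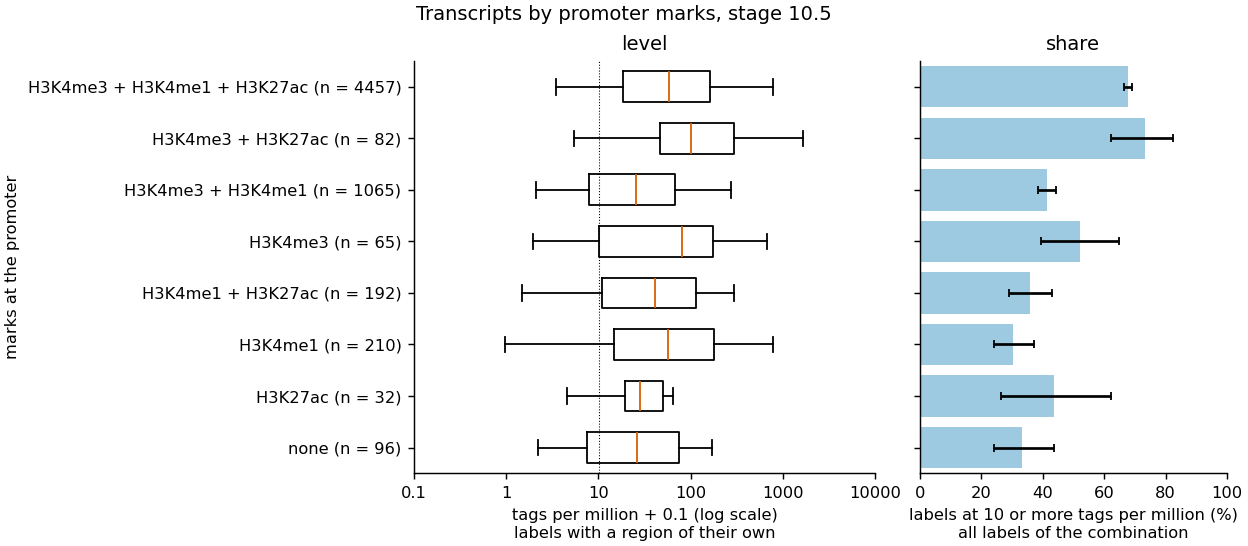
At left, boxes give the median and middle 50% of CPM with 0.1 added, on a log scale with whiskers at 5 and 95%, for labels with a region of their own. At right, bars give the percent of all labels of the combination at 10 or more CPM with exact 95% intervals, and n counts all labels. The medians ran from 25.7 CPM with H3K4me3 and H3K4me1 to 102 with H3K4me3 and H3K27ac.

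Grouped by transcript level, the share with acetylation was higher in each higher class, with overlapping intervals for the lowest classes. H3K27ac lay at 61.3% of the labels without a region, at 67.2% (54.0 to 78.7%) of the 61 labels under 1 CPM, at 72.6% from 1 to 10 CPM and at 81.8% from 10 to 100 CPM. It lay at 88.3% (86.5 to 89.99%) from 100 to 1000 CPM and at 145 of the 153 labels at 1000 CPM or more, or 94.8% (89.96 to 97.7%). H3K4me3 stood at 81.9% without a region, at 85.2% (73.8 to 93.0%) under 1 CPM, at 94.3% from 1 to 10 CPM and at 97.4% in the top class, so between the classes under and above 1 CPM it moved by more than H3K27ac. H3K4me1 stayed between 94.1 and 96.7% in every class. The H3K4me3 peak at the promoter was also wider where transcripts were many, with medians of 1669 bp without a region, 1885 bp from 10 to 100 CPM and 3936 bp at 1000 CPM or more.

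**Figure D4:**
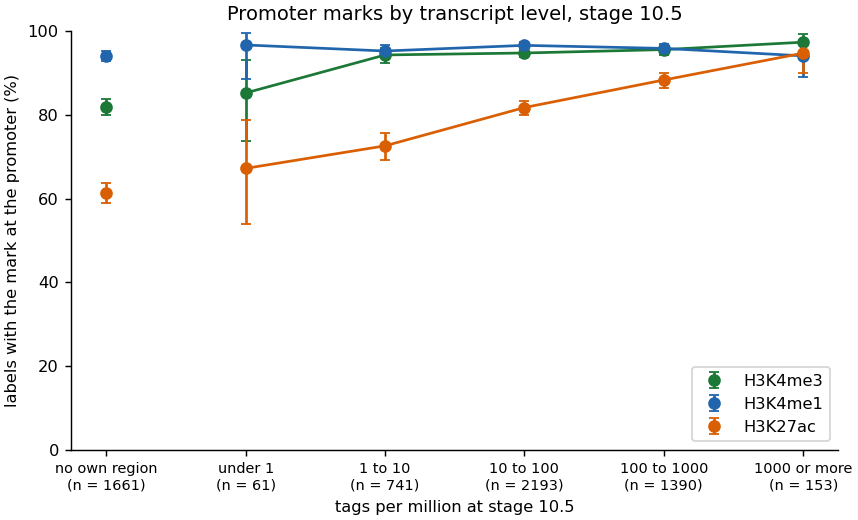
Points give the percent of labels with each mark at the promoter, with exact 95% intervals, by CPM at stage 10.5, and lines join the classes of labels that have a region of their own. H3K27ac runs from 67.2 to 94.8% over the joined classes, while H3K4me1 stays between 94.1 and 96.7%.

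The 10 labels with most transcripts carried all 3 active marks. So did 71.9% of all labels and 138 of the 153 labels at 1000 CPM or more (90.2%). eef1a1o, an oocyte form of the translation elongation factor 1 alpha, had 12001 CPM, an H3K4me3 peak of 5466 bp and an H3K27ac peak of 27663 bp at its start on scaffold 73. hmgb2 and hmgb3, chromatin proteins that bend DNA, had 7237 and 4974 CPM, and hmgn1, which binds nucleosomes, had 6918 CPM. eif1, a translation initiation factor, stood at 6922 CPM with narrow peaks of 2129 bp for H3K4me3 and 2488 bp for H3K27ac. cldn6.1, a claudin of tight junctions, had 6394 CPM, snrpb, a core protein of splicing particles, had 5773 CPM, and the RNA helicase gene ddx39a had 5206 CPM. The 2 others among the 10 highest were sep15, a selenoprotein, at 5311 CPM, and pnrc2, a gene linked to mRNA decay, at 5023 CPM. High transcript levels thus went with peaks of very different width, from 2129 to 7525 bp for H3K4me3 among these 10.

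The highest transcript levels without H3K4me3 at the start were at labels with H3K4me1 alone. The highest level with H3K4me1 and H3K27ac was 355 CPM and the highest with none of the 3 marks was 381 CPM. ldhb, a subunit of lactate dehydrogenase, had 1926 CPM with 1 H3K4me1 peak of 962 bp. MGC76092, an uncharacterized protein gene, had 1808 CPM. khsrp, a splicing and decay factor, had 1550 CPM, and ppp1ca, a catalytic subunit of protein phosphatase 1, had 1531 CPM. upk1a, a uroplakin, and gpt2, an alanine transaminase, had 652 and 636 CPM. The start of upk1a could not be placed, so only peaks annotated to upk1a itself could count there. Its RNA regions lay on 2 scaffolds. psmd12, a proteasome subunit, had 582 CPM, dvl2, a Wnt pathway adaptor, had 579 CPM and gpx1, a glutathione peroxidase, had 416 CPM. Counting by position gave 15085 tags for ldhb and 10803 for khsrp, close to the 15467 and 12449 tags of their labels. In the stage 9 library ldhb was at 3853 CPM. Per the file headers the alignments of the stage 9 and 10.5 libraries carry different dates, so stage and date cannot be told apart.

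Labels with none of the 3 marks near the start could also have transcripts. orc6, a subunit of the origin recognition complex, had 381 CPM, vps28, of the endosomal sorting machinery, had 342 CPM and copa, a coat protein of transport vesicles, had 144 CPM. Of the 10 such labels with most tags, orc6, atraid, mok, preb and c8orf40 had a start that could not be placed from the deposited distances. vps28, copa, ddah2, dap3 and scrn2 had a placed start, and that of vps28 lay at position 2194 of scaffold 1674. The 96 labels with none of the 3 marks reached 10 CPM in 33.3% (24.0 to 43.7%) of cases. Start and strand were placed for 62 of these 96, against 6068 of all 6199 labels.

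The opposite case, all 3 marks and almost no tags under the gene's own label, was split by the positional count. polm, a DNA polymerase of end joining, and the sialyltransferase gene st6gal2 had 0 tags, as had rnaseh1, which degrades RNA in RNA and DNA hybrids. The start of rnaseh1 lay at 2437930 of scaffold 125, and that of rps7, at 451 CPM, at 2437600 on the other strand. Their promoter peaks had the same widths for all 3 marks. A count of 0 in this library allows up to 0.374 CPM. By position polm had 619 tags, dnajb14, a chaperone of the endoplasmic reticulum with 1 tag under its label, had 1634, and rbm7, an RNA-binding protein with 1 tag, had 2938. Such tags can lie in regions of a neighbouring gene, so they do not show that polm, dnajb14 and rbm7 were transcribed. rnaseh1, st6gal2 and atf7 had 0 tags by position, and the sialyltransferase genes st3gal4 and st6galnac4 had 1 each. The widths of their H3K27ac peaks ran from 1133 bp at atf7 to 16531 bp at st6gal2. Between these were 2521 bp at rnaseh1, 3461 bp at st3gal4 and 6135 bp at st6galnac4.

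H3K27me3 was almost absent from promoters in this list, which comes from 1 library and whose completeness was not tested. Its 179 peaks had a median width of 480 bp, 95 of them lay on scaffolds with no annotated start, and 22 lay within 10 kb of a start. H3K4me3 overlapped 55.9% (48.3 to 63.3%) of them, H3K4me1 55.3% and H3K27ac 34.1%, and 53 peaks overlapped none. Between the higher-scoring 50% of each list, H3K4me3 overlapped 2.06% (0.251 to 7.25%) of the 97 H3K27me3 peaks left. Both lists were cut here, so this does not show that the higher-scoring H3K27me3 peaks lack H3K4me3. Of the 179, 25 lay at loci that also had H3K27me3 peaks in the lists of the earlier stages, called recurrent loci here. A Smad2/3 peak overlapped 14 of these 25 and 11 of the other 154. The 8 promoter labels all carried H3K4me3 and H3K4me1, and all but that of snx5, a sorting nexin of endosomes, carried H3K27ac. Over all labels these marks lay at 91.5, 95.6 and 76.8% of promoters, so 8 labels do not show a link between the marks. Transcripts were present for all 8, from 4.48 CPM at csrnp2 to 81.2 CPM at ndufa6, a subunit of respiratory complex I. csrnp2 had 36 tags under its label and 467 by position, which is 41.0 CPM and can include tags of a neighbour. The median of the 8 was 48.9 CPM, against 51.1 CPM over the 4538 labels with a region of their own. meis3, a homeobox gene of posterior neural patterning, had 58.3 CPM. Its H3K27me3 peak lay on scaffold 461 from 380354 to 381169, in intron 1 of 12, inside an H3K27ac peak of 35738 bp. The highest deposited score in the list was 237. Among the 8 promoter peaks the highest, 205 at mrps30, a mitochondrial ribosomal protein gene with 32.4 CPM, lay at a recurrent locus and also overlapped a Smad2/3 peak. It ran on scaffold 43 from 2619655 to 2620803, in intron 5 of 5 of the annotated transcript NM_001100245. The deposited scores of the other 7 peaks lay between 5 and 15.

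The width of a mark and the amount of transcript were weakly related. Over 4279 labels with a region and a placed H3K4me3 peak, Spearman's rho between width and CPM was 0.22 across genes, which share 1 library each for mark and RNA and are not replicates. From the narrowest to the widest group of 4 equal groups, the median was 34.1, 42.8, 63.6 and 82.3 CPM. For H3K27ac rho was 0.09 over 3719 labels, with medians of 44.9, 61.1, 72.5 and 57.8 CPM, so the widest group was not the highest. For H3K4me1 rho was 0.08 over 4322 labels.

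The 10 widest H3K4me3 promoter peaks ran from 13034 to 18765 bp. sox2, a transcription factor of neural and pluripotent cells, had the widest at 18765 bp, followed by oct25, a frog relative of the pluripotency factor Oct4, at 17261 bp and tfap2a, a factor of epidermis and neural crest, at 17181 bp. otx2, a head patterning factor, had 14026 bp, lin28a, which blocks the maturation of let-7 microRNAs, had 13288 bp, and the ephrin signalling genes efnb2 and epha4 had 14128 and 13034 bp. lpar2, a lysophosphatidic acid receptor, had 15075 bp, skida1 14855 bp and the histone gene hist1h2ad 13723 bp. Their transcripts were not uniformly many. tfap2a had 143 CPM, otx2 84.7 CPM, epha4 18.9 CPM and efnb2 3.36 CPM, while sox2, oct25 and lin28a occurred in RNA labels of several genes and had 3398, 10304 and 1628 tags by position. hist1h2ad had 16.4 CPM, a level that counts polyadenylated RNA only. lpar2 and skida1, with no RNA region of their own, had 326 and 0 tags by position. sox2 combined this H3K4me3 peak with an H3K27ac peak of 3642 bp and an H3K4me1 peak of 32604 bp.

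The 10 labels with the widest H3K27ac promoter peaks had 66694 to 94633 bp. spry2, an inhibitor of receptor tyrosine kinase signalling, had 94633 bp at 36.0 CPM, and epha4 had 91346 bp. sox3, the early neural factor, had 88304 bp at 1320 CPM, but 590 CPM when only regions on the gene's strand and scaffold were counted, and 4740 tags by position against 10598 under its label. arid3a, a transcription factor, had 87652 bp at 110 CPM, and greb1l had 73046 bp at 16.8 CPM. hs6st1, a heparan sulfate sulfotransferase, had 69491 bp at 61.6 CPM. dact1, which binds the Wnt adaptor Dishevelled, had 79207 bp at 153 CPM, and ctnnb1, the gene of beta-catenin, had 66694 bp at 1516 CPM. id3, a BMP-responsive inhibitor of helix-loop-helix factors, had 71738 bp at 2676 CPM. The same acetylated peak of 71738 bp reached the start of msra.2, a methionine sulfoxide reductase gene, which had no H3K4me3, no RNA region of its own and 0 tags by position. Transcript levels over these 10 labels thus ran from no region to 2676 CPM.

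Labels with more H3K27ac peaks centred beyond 1 kb had somewhat higher medians, without a steady rise. H3K27ac peaks centred over 1 kb and at most 50 kb from a start were counted for the gene they were annotated to. A wide peak that also reached the promoter was therefore counted if its centre lay over 1 kb away. The 2695 labels with none had a median of 45.6 CPM, the 1642 with 1 had 53.9 CPM, the 1287 with 2 to 3 had 51.7 CPM, the 528 with 4 to 7 had 67.1 CPM and the 47 with 8 or more had 75.5 CPM. The share at 10 CPM was 57.8% (55.9 to 59.7%) with none and lay between 61.7 and 62.5% in the other groups. Promoters with all 3 marks had on average 2.199 distal H3K4me1 peaks, of which 63.3% carried H3K27ac. Promoters with H3K4me3 and H3K4me1 and no H3K27ac had 1.54, of which 44.3% carried it. Distal again means a centre over 1 kb away, so these peaks, or the H3K27ac peaks they overlap, can reach the promoter. The contrast between 63.3% and 44.3% is thus partly set by how these kinds of promoter were defined.

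Promoters with and without H3K27ac at stage 10.5 differed in the lists of earlier stages as well. H3K4me3 was already listed at stage 9 at 70.2% (68.9 to 71.6%) of the promoters with all 3 marks, and at 37.3% (34.4 to 40.3%) of those with H3K4me3 and H3K4me1 and no H3K27ac. At stage 8 the shares were 15.1% and 3.38%. H3K4me1 did not separate them at stage 9, with 96.99% and 97.3%. H3K27ac was listed at stage 9 at 59.4% of the first kind and at 15.3% of the second. The second kind had narrower H3K4me3 peaks, with a median of 1303 bp, and a median GC content of 47.0%. A Smad2/3 peak of stage 10.5 was annotated within 50 kb to 7.76% of the labels of the first kind and to 1.88% of the second.

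The gene lists differed in how many of their labels carried the marks. These counts are read against all labels, of which 71.9% carried all 3 active marks and 60.3% reached 10 CPM. They also depend on wide peaks that reach the start. With the peak's centre within 1 kb, H3K27ac lay at 3439 of all 6199 labels and at 47 of 65 ribosomal labels. It then lay at 12 of 20 labels of writers, erasers and readers, 7 of 15 housekeeping and 5 of 12 maternal labels. The counts were 5 of 12 endoderm, 5 of 11 organizer, 2 of 7 Nodal and 2 of 14 BMP labels. They were 5 of 22 mesoderm, 6 of 17 ectoderm, 1 of 9 later cell type and 0 of 11 Hox labels. The 65 labels of ribosomal proteins, the protein components of the ribosome, carried all 3 active marks in 62 cases. All 60 with an RNA region reached 10 CPM, with a median of 733 CPM. Their levels ran from 22.7 CPM at rpl34 to 4128 CPM at rpl15, with rpl7a at 3029 and rplp1 at 2785 CPM. Tags of near-identical copies of these genes could not be told apart. rps2, in an RNA label of several genes, had 1608 CPM by position. rps13 carried H3K4me1 alone at 407 CPM and its start could not be placed. Of 15 housekeeping labels 10 carried all 3 marks and 14 reached 10 CPM. gapdh and pgk1, enzymes of glycolysis, had no H3K27ac at 503 and 127 CPM.

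The lists of germ layer and axis regulators had lower median levels than the ribosomal proteins. All 3 marks lay at 11 of 12 endoderm labels, 16 of 22 mesoderm labels, 9 of 11 organizer labels, 13 of 14 BMP and ventral labels and 16 of 17 ectoderm and neural labels. The mesoderm and organizer shares, 72.7 and 81.8%, are near the 71.9% of all labels. The numbers at 10 CPM were 8, 12, 6, 9 and 14, and the median levels were 50.3, 38.4, 62.7, 139 and 187 CPM. In the endoderm list, pnhd, a secreted factor, had 217 CPM, eomes, a T-box factor, 75.3 CPM and sox17a, an endoderm determinant, 48.1 CPM. gata4 and gata6 stood at 9.71 and 3.11 CPM under their labels and at 34.5 and 31.1 CPM by position, which can include tags of a neighbour. In the mesoderm list, t, the brachyury gene, had 233 CPM with an H3K27ac peak of 20129 bp, and wnt8a, a Wnt ligand, had 81.1 CPM with one of 29325 bp. vegt, a maternal and zygotic T-box factor, had 294 CPM with H3K4me1 and H3K27ac and no H3K4me3 within 1 kb. cdx2, a caudal factor of the posterior body, had 180 CPM with no H3K27ac.

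Some lineage genes had the marks with no RNA region of their own and 0 tags by position. This does not show them to be silent, since the positional count can miss tags. greb1l had 135 tags under its label, 16.8 CPM on the gene's strand and scaffold, and 0 tags by position. gata5, an endoderm factor, had 126 tags under its label and 0 by position, but 0 CPM on the strand and scaffold of its placed start. myod1, the muscle determinant, snai2, a neural crest factor, and tbx1, of pharyngeal development, carried H3K4me3 and H3K4me1 without H3K27ac. fgf4 and fgf20, growth factor genes, and mespa carried all 3 marks. In the organizer list, not, a notochord homeobox gene, had 260 CPM, admp, a BMP family ligand, 85.9 CPM, gsc, a homeobox gene of the organizer, 66.6 CPM and chrd, the BMP antagonist chordin, 58.8 CPM. fst, the activin antagonist follistatin, had 4.48 CPM with no H3K27ac. The ventral gene ventx1.1 had 331 CPM and the ligand gene bmp4 139 CPM. In the ectoderm, gmnn, a regulator of replication licensing, and krt18, a keratin, had 1650 and 1446 CPM. All 5 Nodal list labels with marks carried all 3. They included cer1, a secreted Nodal antagonist, at 204 CPM, the co-receptor gene tdgf1 at 74.8 CPM and gdf3 at 41.5 CPM. Also among them were nodal1 and lefty, which had no RNA region of their own. nodal1 occurred in an RNA label of several genes and had 3597 tags by position, or 316 CPM, which can include tags of a neighbour. The start of lefty could not be placed, so it had no count by position. The other 2 labels of the list, nodal and nodal3.2, had none of the 3, but their starts could not be placed. For such labels only peaks annotated to the label itself could count. All 8 pluripotency labels carried the 3 marks, but with the peak's centre within 1 kb H3K27ac lay at 2 of them. Among the 6 with an RNA region, levels ran from 23.0 CPM at mycn to 321 CPM at sall4, with klf17 at 241 CPM. klf4 had no RNA region of its own and 0 tags by position.

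Hox genes and markers of later cell types had H3K4me1 with or without H3K4me3 and fewer acetylated promoters than the 76.8% of all labels. Among 11 Hox labels, the genes that pattern the body axis, all carried H3K4me1, 8 carried H3K4me3 and 2 carried H3K27ac. hoxd1 was acetylated and had 92.8 CPM, and the 9 labels without H3K27ac had no RNA region of their own and 0 tags by position. hoxb3 had an H3K4me3 peak of 6256 bp without acetylation, against 5972 bp at hoxd1 with it. Of the 9 labels of later cell types, 9 carried H3K4me1, 5 H3K4me3 and 3 H3K27ac, and only pax6, an eye and neural homeobox gene, carried all 3. actc1, the cardiac actin gene, had an H3K27ac peak of 23105 bp over its start with no H3K4me3 and 0 tags by position. Among all labels whose deposited description holds the word homeobox, a word chosen after these values were seen, 38 of 71 carried H3K27ac (53.5%) and 25 carried H3K4me3 and H3K4me1 without it.

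Of 12 labels of maternal and germ plasm genes, 10 reached 10 CPM and 6 carried all 3 marks. plin2, a lipid droplet protein, had 471 CPM with H3K4me3 and H3K4me1 only, and dazl, a germ cell RNA-binding protein, had 116 CPM with an H3K4me3 peak of 604 bp and no H3K27ac. wee2, an oocyte cell cycle kinase, and foxh1, a partner of Smad2/3, had 328 and 324 CPM with H3K4me1 and H3K27ac and no H3K4me3. In the stage 9 library these 4 genes were at 637, 117, 445 and 433 CPM.

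Transcripts of the enzymes behind the marks were present at the same stage. Of 20 labels of writers, erasers and readers, 17 carried all 3 marks, and 13 reached 10 CPM, near the 60.3% of all labels, with a median of 84.3 CPM. The Polycomb genes eed, suz12 and ezh2, whose complex trimethylates lysine 27, had 197, 121 and 81.6 CPM, and kdm6a, which removes that mark, had 25.7 CPM. hdac1 and hdac2, histone deacetylases, had 521 and 172 CPM, and dpy30, of the H3K4 methyltransferase complexes, had 277 CPM. bmi1 and cbx8, of the other Polycomb complex, had 2.86 and 4.11 CPM and no H3K27ac, and bmi1 had an H3K4me3 peak of 9446 bp and 10.6 CPM by position. ring1 and rnf2, of the same complex, carried all 3 marks, ring1 with 29.3 CPM and rnf2 with no RNA region of its own and 6 tags by position.

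**Figure D5:**
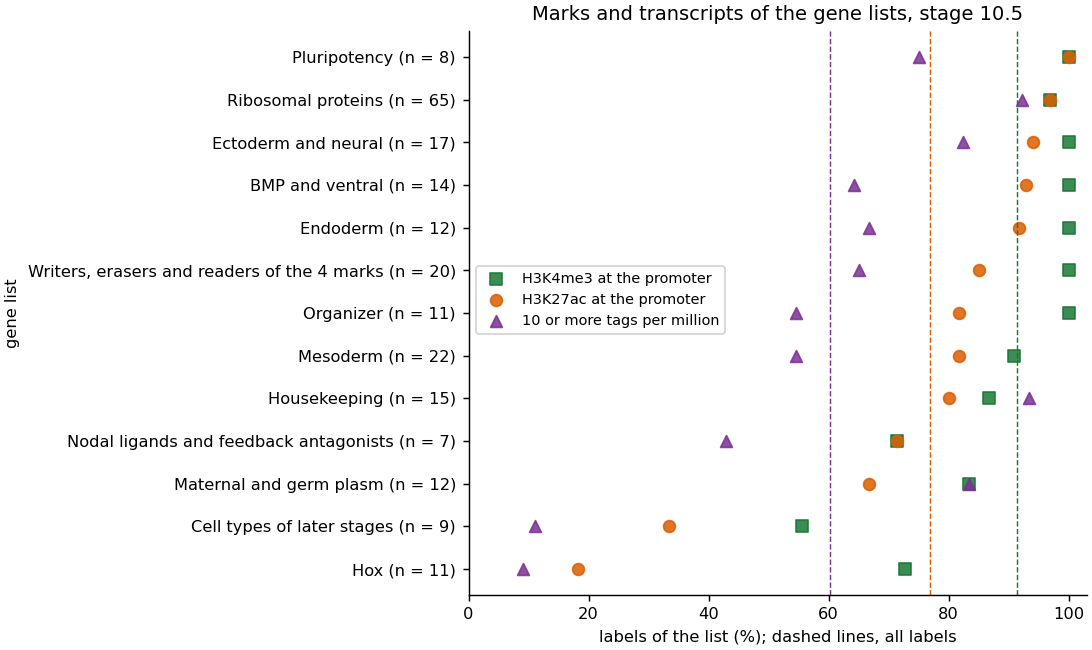
Symbols give the percent of each list's labels with H3K4me3 or H3K27ac at the promoter and at 10 or more CPM, and dashed lines give the same over all labels. Hox genes and markers of later cell types lie at the bottom, with H3K27ac at 2 of 11 and 3 of 9 labels, below the line at 76.8%.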

How the data were processed

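The deposited files were used as they are. Per the submitters' processing notes, the untreated histone libraries went through BWA, MACS2 and HOMER, whose versions are not stated. The assembly is xenTro2, per the file headers. The score of each peak is the authors' deposited value and was used only for ranking. The deposited GC fraction was turned into a percent. The RNA table holds deposited tag counts for 46039 regions, of which 20406 name no gene, with 29.5% of the stage 10.5 tags. Regions were called with a bandwidth of 50, per the file headers. Of its columns, 4 belong to no listed sample and stayed out of every step.

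Start positions were deduced from the deposited peak positions and signed distances, for 6166 of 6305 start sites. For the other 139 the distance less 50% of the peak's width was used. A mark counted at a promoter where any part of a peak lay within 1 kb of a start. RNA labels were matched by name (4304) or by a deposited alias on the same scaffold (234), and tags of a label were summed and scaled to labelled tags (CPM). Regions written with the end before the start were read as the minus strand, and 90.6% of the tags of matched labels lay on the gene's strand. Intervals are Clopper-Pearson. The code was tested on simulated peaks. Python 3.11.15, pandas 2.3.3, scipy 1.17.1 and matplotlib 3.10.9 were used. The members, the 13 gene lists and the thresholds were chosen with earlier results of these data known. Genes are named by extremes of tags or width within a combination of marks, by H3K27me3 at the promoter, or as list members. Genes of the lists were picked from these members for the text with their values in view. A few list members and other genes are not reported here.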

Additional observations from a re-analysis of the deposited data

Results flagged for a closer look

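Tags lay downstream of some starts in RNA regions that name no gene, a part of the RNA table outside the comparison by label. These are the 4 labels with most such tags among those with no RNA label, counted on the gene's strand up to the next start and at most 50 kb. Which gene such a region belongs to was not tested. A count of 0 would allow 3 tags. Downstream of cldn7, a claudin, lay 83018 unlabelled tags, downstream of srpk2, a kinase of splicing factors, 28436, and downstream of nop56, a nucleolar protein, 20804. The count was 7712 at sephs2, which makes selenophosphate. The promoters of all 4 carried the 3 active marks, as did 71.9% of all labels.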

How the results depend on the processing

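No paired analysis was possible because each group holds 1 library and no test was made. Of the 97 values recomputed for the main results, 55 stayed within 1.5 times (counts), the interval (shares) or 1.1 times (ratios), and 42 moved. Some outcomes were set in advance, so this tally does not measure robustness. The ratio of medians could not change with the CPM threshold, the scaling to all tags or the loss of labels without a region. Shares at 1 CPM could not be lower, and shares at 50 CPM could not be higher, than at 10 CPM. The order of the second and the third of the shares below turned round by centre and over labels with a region. With 50% of a peak covered, H3K27ac overlapped 58.9% of H3K4me3 and 51.1% of H3K4me1 peaks, and H3K4me1 63.9% of H3K27ac peaks. In the higher-scoring 50% of each list these were 77.3%, 57.3% and 79.4%. H3K27me3 lay at 3 promoters when the start itself had to be covered and at 1 in the higher-scoring 50%. All 3 marks lay at 2520 labels when the peak's centre had to be within 1 kb and at 2896 in the higher-scoring 50%. None lay at 570 by centre, 221 covering the start, 532 in the higher-scoring 50% and 61 with 1 placed start. H3K4me3 without H3K27ac lay at 1807 by centre.

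Shares at the level are given as H3K4me3 with H3K27ac, H3K4me3 without it, and no H3K4me3. They were 79.4, 57.9 and 41.7% at 1 CPM, 43.2, 20.8 and 19.1% at 50 CPM, and 84.7, 71.0 and 77.8% over labels with a region. Scaled to all tags, the first and second were 64.0 and 38.5%, and with the largest region 63.7 and 39.0%. By centre the second and the third were 51.6 and 55.4%. In the higher-scoring 50% they were 72.8, 57.4 and 40.5%. Of the alternatives added after seeing the data, tags by position gave 70.7% for the first, gene strand only gave 64.5, 38.0 and 25.3%, and same names only gave 64.3% for the first. The ratio of medians was 1.96 with the largest region, 1.501 by centre and 9.55 by position, where labels with 0 tags enter. By centre 48 of 223 listed labels had all 3 marks, against 176, so the list counts rest on reading wide peaks by their extent. The cause of these moves was not tested. The spread between libraries was not measured, and the effect of tag depth was not tested.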
